A study of Rattus norvegicus with 12 samples.

Results

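The left ventricles of sham-operated rat pups were compared at postnatal day 7 (P7) and postnatal day 3 (P3), which covers 4 days of growth without aortic banding. The libraries were chosen by their labels alone. They are the 3 sham libraries of P7 and the 3 sham libraries of P3, 6 of the 12 libraries of the series. The pups of both groups were Sprague-Dawley rats, male and female, with sham surgery on the first day after birth under ice cooling, so the P3 and P7 hearts differ in age and in the time since surgery. The other 6 libraries, 3 at P3 and 3 at P7, are from pups of the ABS group, whose abdominal aorta was banded to load the left ventricle. The sample labels name left ventricular myocardiocytes, while the methods of the study state that left ventricles were collected. This was not checked against marker genes, because the files give rat Ensembl identifiers and 0 of the 32883 identifiers could be paired with a gene symbol. For the same reason, genes are described by their identifiers and levels, and no pathway is named.

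In rodents, the days after birth are the time when the ventricle changes from its fetal to its mature state. Cardiomyocytes leave the cell cycle and grow by enlarging, the fuel shifts from glucose and lactate to fatty acids as mitochondria expand, and several contractile proteins change from a fetal to an adult isoform. The share of fibroblasts, endothelial cells, blood cells and macrophages in the tissue also changes in this period. In RNA of a whole tissue, fewer cells of a type and less RNA per cell cannot be told apart.

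The total count was 16230893 to 17286278 per library at P3 and 14291538 to 16102725 at P7. The number of rows with at least 1 count was 18579 to 18982 at P7, and 18359, 15451 and 17259 in P3 replicates 1, 2 and 3. P3 replicate 2 thus had the fewest detected rows although its total of 16681363 was above that of every P7 library. The 100 rows with the most counts held 33.0% to 33.7% of the reads of the P7 libraries, and 36.0%, 44.7% and 36.8% of the reads of P3 replicates 1, 2 and 3. Scatter between any pair of sham libraries was at least 2.55 times the sampling noise, so no library was a copy of another or the same library sequenced again.

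The P3 libraries differed from each other much more than the P7 libraries. Levels are given as CPM, the counts of a gene scaled to the library total times a TMM factor of that library. Libraries were compared by the Pearson correlation of their log2 CPM over 9148 well-expressed genes. The mean of each of these genes over the 6 libraries was 10 CPM or more. The pairs of P7 libraries correlated at 0.977 to 0.981. The pairs of P3 libraries correlated at 0.723 for replicates 1 and 2, 0.877 for replicates 1 and 3 and 0.914 for replicates 2 and 3. P3 replicate 1 correlated with the P7 libraries at 0.938 to 0.948, more closely than with either of the other P3 libraries. P3 replicate 3 was at 0.872 to 0.885 with the P7 libraries, and P3 replicate 2 was at 0.718 to 0.723. These correlations are across genes of the same libraries, describe only these 6 libraries and carry no test. The study describes its ABS and sham groups as consistent inside each group at both ages, from a cluster analysis of its called genes. From a principal component analysis, it also describes the spread inside the groups as relatively small. Whether P3 replicate 1 is of the age on its label, or differs from the other P3 libraries in tissue or RNA, cannot be told apart from the counts. The counts of called and of separated genes and the values of 4 named genes are therefore also given without it.

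**Figure D1:**
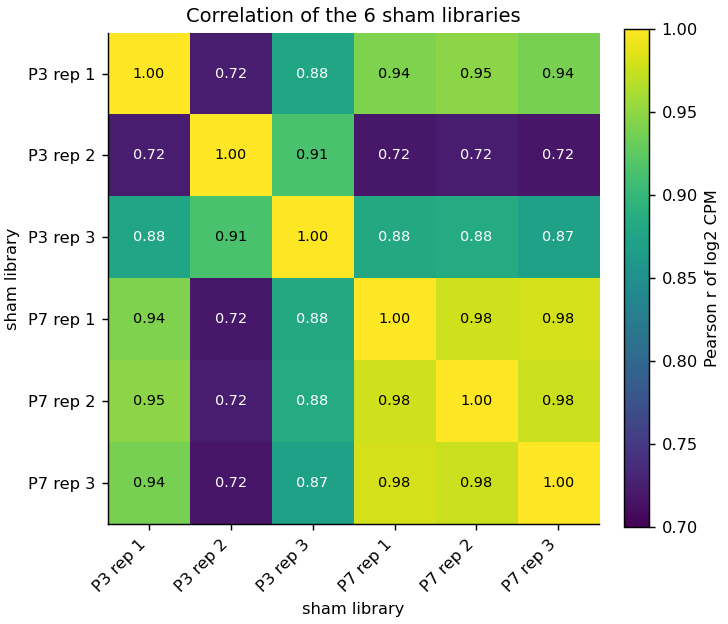
Each cell gives the Pearson correlation of log2 CPM between the sham library of its row and that of its column, over 9148 genes. The 3 P7 libraries form a block at 0.98, P3 replicate 1 lies at 0.94 to 0.95 with them, and P3 replicate 2 at 0.72.

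The same order was seen gene by gene. P3 replicate 1 differed from the mean of the P7 libraries by a median of 0.21 on the log2 scale, P3 replicate 3 by 0.42 and P3 replicate 2 by 0.74. A difference of more than 2-fold from that mean was found for 302 of the 9148 genes (3.30%) in P3 replicate 1, for 1218 (13.3%) in P3 replicate 3 and for 3333 (36.4%) in P3 replicate 2. P3 replicate 1 lay within the range of the P7 libraries for 2361 genes (25.8%), P3 replicate 3 for 1298 (14.2%) and P3 replicate 2 for 770 (8.42%). Of the P3 libraries, replicate 1 was the nearest to the P7 mean for 5898 genes (64.5%), and replicate 2 was the farthest for 6380 genes (69.7%). The median SD of log2 CPM was 0.43 among the P3 libraries and 0.10 among the P7 libraries, and 8363 genes (91.4%) had the larger SD at P3. The biological coefficient of variation, the spread between libraries beyond counting noise, was 0.535 at P3 and 0.139 at P7.

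**Figure D2:**
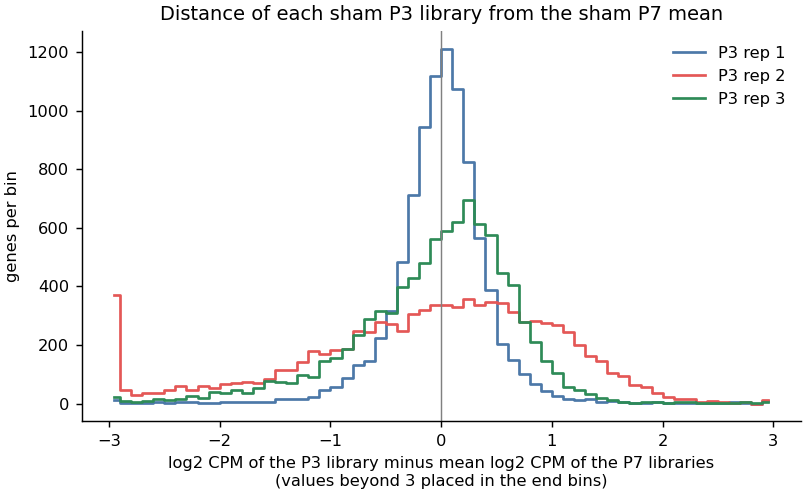
The number of genes (vertical axis) is plotted against the log2 CPM of 1 sham P3 library minus the mean log2 CPM of the 3 sham P7 libraries, with 1 line per P3 library and values beyond 3 in the end bins. The line of P3 replicate 1 is narrow around 0, with 302 genes beyond 2-fold, and that of P3 replicate 2 is broad, with 3333.

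The rows missing from P3 replicate 2 included rows with counts well above 0 elsewhere. At least 10 counts in each P7 library and in P3 replicate 1, with 0 counts in P3 replicate 2, were found for 440 rows. The same pattern with P3 replicates 1 and 2 exchanged was found for 6 rows. With P3 replicate 3 in the place of replicate 1, there were 300 such rows. No row (0 of 34733) had at least 10 counts in each library of one day and 0 counts in each library of the other, in either direction.

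P7 was compared with P3 over the 6 sham libraries in a two-sided quasi-likelihood F test of edgeR, adjusted after Benjamini and Hochberg over 14619 genes. As many sham pups were set aside for sequencing at each age as there are libraries, so each library appears to be of 1 pup, and p-values measure the spread between pups together with that of preparation. A single gene (1 of 14619, or 0.00684%) passed an adjusted p of 0.05, and it was higher at P7. An unadjusted p under 0.05 was found for 2360 genes (16.1%), 869 higher at P7 (5.94%) and 1491 lower (10.2%). This balance turned on library totals alone, with 1249 higher and 708 lower, and with the replicate number as a block, with 1032 higher and 800 lower. The median log2 fold change of all genes tested was 0.01. With DESeq2, the tool of the study, 412 of 21410 genes (1.92%) had an adjusted p under 0.05, 186 higher at P7 (0.869%) and 226 lower (1.06%).

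In edgeR's test, leaving out 1 library changed the number of genes called by far more than leaving out any other. Without P3 replicate 1, edgeR's test called 4820 of 14979 genes (32.2%), 2353 higher at P7 (15.7%) and 2467 lower (16.5%). Without any 1 of the other 5 libraries, it called 0 genes (0%). In these fits, an unadjusted p under 0.05 was found for 2228 genes (14.9%) without P3 replicate 2 and 1577 (10.5%) without P3 replicate 3. Without P7 replicates 1, 2 and 3, the numbers were 1051 (7.02%), 954 (6.36%) and 928 (6.21%). The biological coefficient of variation of the fit was 0.384 with the 6 libraries and 0.268 without P3 replicate 1. It was 0.280 without P3 replicate 2, where the lowest adjusted p was 0.0613.

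**Figure D3:**
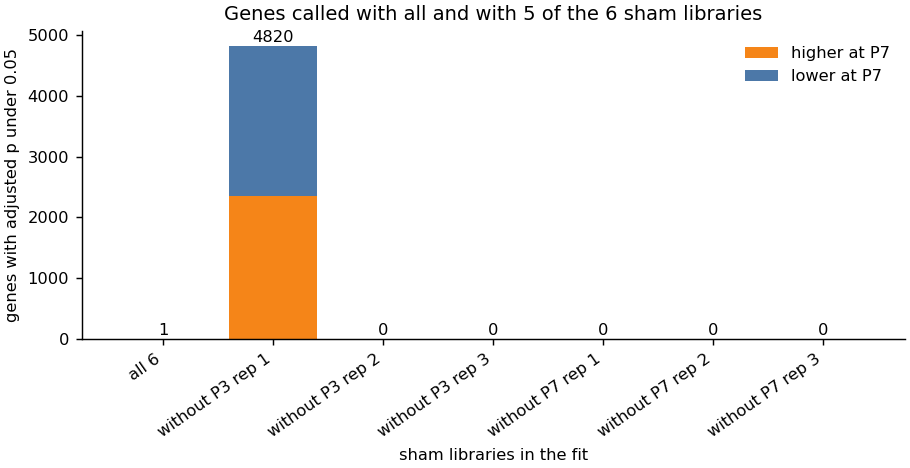
The bars show the number of genes with an adjusted p under 0.05 (edgeR) for P7 against P3 in sham hearts, with all 6 libraries and with each library left out, divided by direction. The bar without P3 replicate 1 reaches 4820 genes, while the fit on all 6 gives 1 and each of the others gives 0.

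P3 replicate 1 had no part in the fit that left it out, so it can be set beside those calls. Of the 4820 genes called without it, 4764 were also tested over the 6 libraries. P3 replicate 1 lay on the same side of the P7 mean as the mean of the other P3 libraries for 2903 of them (60.9%), against 8295 of all 14619 genes tested (56.7%). It lay within the range of the P7 libraries for 1164 (24.4%), against 29.0% of all genes tested. The other P3 libraries differed from the P7 mean by a median of 1.07 on the log2 scale over these 4764 genes, and P3 replicate 1 by 0.24. The median share of their difference that P3 replicate 1 carried was 0.0773. Over all 14619 genes tested, the median difference from the P7 mean was 0.64 for the other P3 libraries and 0.27 for P3 replicate 1. The difference of P3 replicates 2 and 3 from P7 was set by the call itself. In the median, P3 replicate 1 was about as near to P7 for the 4764 genes as for all genes tested.

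Differences among the P3 libraries were set beside differences between the days. The log2 difference of P3 replicate 1 minus replicate 2 and that of the P7 mean minus P3 replicate 3, which share no library, correlated across the 9148 genes at a Pearson r of 0.753 (Spearman rho 0.776). For replicate 1 minus replicate 3 and the P7 mean minus replicate 2, r was 0.719 (rho 0.729). For replicate 3 minus replicate 2 and the P7 mean minus replicate 1, r was 0.03 (rho 0.06). Replicate 1 differed from the P7 mean by a median of only 0.21 on the log2 scale, so this last pair holds little difference between the days. The values all depend on where replicate 1 lies, so they cannot say how far the P3 spread follows age. Genes are not independent, all values were scaled together, and these are descriptions.

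Single genes were then ranked by a rule on the values themselves. Of the 9148 well-expressed genes, 3064 (33.5%) had all libraries of one day above all libraries of the other. All P7 libraries were above all P3 libraries for 1417 genes (15.5%) and below them for 1647 (18.0%). Over the 14619 genes tested, at any level, 30.0% were separated, 15.6% higher and 14.4% lower. The direction of these counts depends on the scaling. On library totals without TMM factors, which raised the median log2 fold change of all genes by 0.21, 2210 genes were higher at P7 and 848 lower, so that the share of higher ones was 72.3% in place of 46.2%. For the separated genes, the median log2 fold change was 0.67 (quartiles 0.45 and 1.01) among those higher at P7 and -0.61 (quartiles -0.86 and -0.40) among those lower. The groups were chosen not to overlap, so these medians are a description.

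The days were separated by a small gap for most of these genes. The lowest library of the higher day was above the highest library of the lower day by a median of 1.11-fold in both directions. The gap was at least 1.5-fold for 103 genes higher at P7 and 81 lower, and at least 2-fold for 17 genes in each direction. The P3 library that bounded the gap was replicate 1 for 1022 of the 1417 genes higher at P7 (72.1%) and for 1205 of the 1647 lower (73.2%). Without P3 replicate 1, 6753 of 9119 genes (74.1%) were separated, and without any 1 of the other 5 libraries, 3427 to 3590 were. The difference between the day means was larger than the whole range of the P3 libraries for 1249 of the 9148 genes (13.7%), and larger than the range of the P7 libraries for 6527 (71.3%).

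The ends of this ranking are 2 genes with the largest rise and 2 with the largest fall among the separated Ensembl genes. This order is that of all 6 libraries and does not hold without P3 replicate 1. ENSRNOG00000007102 was the only gene past the adjusted threshold. Its level was 17.4, 17.0 and 15.8 CPM in P3 replicates 1, 2 and 3 and 120.0, 91.8 and 109.8 CPM in P7 replicates 1, 2 and 3. The P3 libraries agreed closely for this gene, at 16.7 ± 0.812 CPM (SD, n = 3), and every P7 library was at least 5.27-fold above them. Its mean at P7 was 107 ± 14.3 CPM (SD, n = 3). The log2 fold change was 2.68 ± 0.18 (SE; edgeR adjusted p = 0.0305, DESeq2 adjusted p = 1.33e-27). Among the fits that left out 1 library, the edgeR adjusted p was 0.00689 without P3 replicate 1 and 0.0613 to 0.511 in the other 5. Its log2 fold change was 2.58 to 2.77 in these 6 fits. In a fit of all 12 libraries its edgeR adjusted p was 0.0827, and with the replicate number as a block it was 0.379.

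ENSRNOG00000048169 had the largest rise over the 6 libraries. It went from 1.08, 4.01 and 4.07 CPM in the P3 libraries to 15.7, 19.5 and 28.6 CPM in the P7 libraries. The days were 3.85-fold apart at the gap, with the lowest P3 level in replicate 1. The log2 fold change was 2.80 ± 0.54 (SE; edgeR adjusted p = 0.25). With DESeq2 it was called, with an adjusted p of 4.71e-05. Without P3 replicate 1 it passed in edgeR as well (log2 fold change 2.38, adjusted p = 0.0107). Its mean level of 12.2 CPM lies near the lower limit of 10 CPM.

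ENSRNOG00000013330 had the largest fall over the 6 libraries. It was at 56.3, 14.6 and 9.83 CPM in P3 replicates 1, 2 and 3 and at 3.06, 0.29 and 2.06 CPM in the P7 libraries. P3 replicate 1 alone was high, and the other P3 libraries were still 3.21-fold or more above the P7 libraries. The mean of this gene, 14.4 CPM, was above the limit of 10 CPM through P3 replicate 1. Of the other sham libraries, only P3 replicate 2 was above 10 CPM. The log2 fold change was -3.90 ± 0.99 (SE; adjusted p = 0.286 with edgeR and 0.000646 with DESeq2). Without P3 replicate 1, it was smaller in size, at -2.77, and passed the threshold (edgeR adjusted p = 0.0392). Another of the 15 falls was then larger in size, at -3.05, so the rank rests on that library. With any other library left out, the edgeR adjusted p of ENSRNOG00000013330 was 0.207 to 0.645.

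ENSRNOG00000019120 showed the same form, with 180.6 CPM in P3 replicate 1, 31.3 and 25.2 CPM in P3 replicates 2 and 3, and 12.8, 6.68 and 16.4 CPM in the P7 libraries. Its SD at P3 (88.0 CPM) was above its mean there (79.1 CPM). The log2 fold change was -2.73 ± 0.84 (SE; adjusted p = 0.287 with edgeR and 0.0147 with DESeq2) and was -1.25 without P3 replicate 1, where it passed the threshold (edgeR adjusted p = 0.0454). These genes were chosen for days that do not overlap, so no permutation p is given for them.

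**Figure D4:**
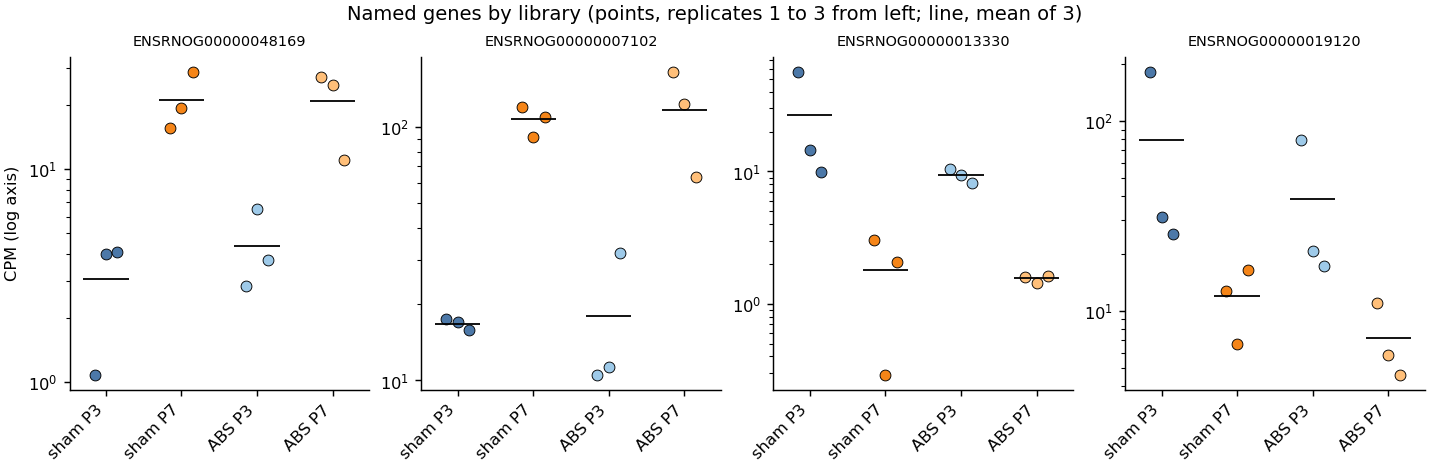
CPM of 4 genes (log axis) in each library of the 4 groups, with replicates 1 to 3 from left to right and the mean of 3 as a line; sham and ABS values were scaled separately. In each panel, the 3 sham P7 libraries lie on one side of the 3 sham P3 libraries, and P3 replicate 1 stands far above the other P3 libraries in both genes that fell.

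Among the 15 largest rises, the log2 fold change was 1.84 to 2.80, with a mean level of 10.2 to 497 CPM. An unadjusted p under 0.05 was found for 10 of these genes, against 16.1% of all genes tested, and an adjusted p under 0.05 from DESeq2 for 7, against 1.92%. Among the 15 largest falls, it was -1.93 to -3.90, with a mean level of 12.6 to 954 CPM, and 13 and 12 genes passed these thresholds. The genes were picked for their large differences in the same libraries, so these counts are a description. Without P3 replicate 1, edgeR called 14 of the 15 rises and 13 of the 15 falls, where 32.2% of all genes were called, and with all 6 libraries it called 1 of these genes. The P3 libraries of a single gene spanned a median of 4.09-fold for the rises and 3.28-fold for the falls. The P7 libraries spanned a median of 1.27-fold and 1.48-fold. A span of more than 5-fold was found at P3 for 7 rises and 3 falls, and at P7 for 0 rises and 3 falls. For the falls, wide spread was thus as frequent at P7 as at P3. For the rises, the lowest P3 level was in replicate 2 for 8 genes, and for the falls the highest P3 level was in replicate 2 for 12. The rank behind the 15th gene gave nearly the same values, with log2 fold changes of 1.84 and 1.83 for the 15th and 16th rise and of -1.93 and -1.92 for the 15th and 16th fall.

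The share of separated genes in each direction differed with the level of the gene. That level is the mean over the same libraries, so a gene can enter a higher range through high P3 values. In P3 replicate 2, the 100 rows with the most counts held 44.7% of the reads. The part of this selection and of that library in the pattern was not tested. Of the 79 genes with a mean over 1000 CPM, 37 (46.8%) were lower at P7 without overlap and 4 (5.06%) were higher. The median log2 fold change of these 79 genes was -0.53. For 636 genes at 200 to 1000 CPM, 31.3% were lower and 12.9% higher. For 2794 genes at 50 to 200 CPM, the shares were 19.8% and 16.2%, and for 5639 genes at 10 to 50 CPM they were 15.2% and 15.6%. On library totals alone, the genes over 1000 CPM were lower for 34.6% and higher for 12.8%, while below 50 CPM 7.88% were lower and 24.0% higher. The genes over 1000 CPM were thus on the lower side at P7 under both scalings. At 50 to 1000 CPM the more frequent direction turned with the scaling.

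**Figure D5:**
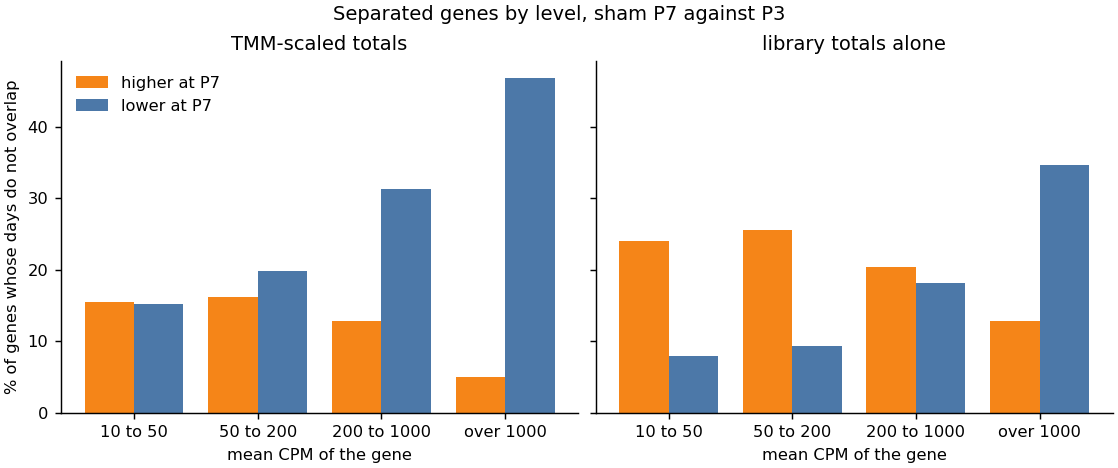
The bars give the percentage of genes whose sham P7 and P3 libraries do not overlap, by direction, for 4 ranges of mean CPM, with TMM-scaled totals on the left and library totals alone on the right. Genes over 1000 CPM are more often lower at P7 in both panels (46.8% and 34.6%), and the share of higher genes at 10 to 50 CPM goes from 15.6% to 24.0%.

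The row with the highest count shows this pattern in every library. It held 5.64%, 7.17% and 4.97% of the reads in P3 replicates 1, 2 and 3 and 4.10%, 4.20% and 4.12% in P7 replicates 1, 2 and 3. All P3 libraries were above all P7 libraries, with replicate 2 the highest. The log2 fold change of this row was -0.77 ± 0.29 (SE; edgeR adjusted p = 0.296). Rows with numbered names of the authors, outside the Ensembl genes, went the other way in total, with 1.18%, 1.04% and 1.10% of the reads at P3 and 1.27%, 1.22% and 1.26% at P7. Of the 146 well-expressed rows of this kind, 36 (24.7%) were higher at P7 without overlap and 17 (11.6%) lower, against 15.5% and 18.0% of all well-expressed genes. On library totals alone, 51 of 144 such rows were higher (35.4%) and 12 lower (8.33%), against 2210 and 848 of all 9163 well-expressed genes at that scaling.

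The banded hearts give the same comparison of days in 6 libraries that had no part in the ranking. On their own, edgeR called 2 of 14504 genes there (0.0138%), with 2571 (17.7%) at an unadjusted p under 0.05, and DESeq2 called 490 (2.31%). Of the 1417 genes higher at P7 in sham hearts, 1391 were also well expressed in the banded hearts, and 686 of these (49.3%) were higher at P7 there without overlap. Over all 8947 genes of that level in both, 13.4% were. Of the 1647 genes lower at P7 in sham hearts, 1626 had that level and 829 (51.0%) were lower without overlap, against 16.7% of all. The log2 fold change in banded hearts had the sign of the sham hearts for 97.8% of the higher genes and 97.4% of the lower, where 46.8% and 53.2% of all genes were above and below 0. Days that did not overlap in the opposite direction were found for 1 and 2 genes. The P3 libraries of the banded hearts also differ among themselves. Without ABS P3 replicate 3, edgeR called 7468 genes in banded hearts in place of 2 of 14504. The number of genes tested without that library is not given here. Whether ABS P3 replicate 3 is of the age on its label cannot be told from the counts either. Across the 9148 genes, the difference between sham P3 replicates 1 and 2 and that between ABS P7 and ABS P3 correlated at r = 0.805 (rho 0.782), with no library in common. The part of the P3 spread in this agreement was not tested.

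The 4 named genes kept their direction in the banded hearts. ENSRNOG00000007102 was at 10.5, 11.3 and 31.9 CPM in the ABS P3 libraries and at 164.7, 123.7 and 63.5 CPM in the ABS P7 libraries (log2 fold change 2.71 ± 0.56, edgeR adjusted p = 0.233). ENSRNOG00000048169 went from 2.82, 6.48 and 3.74 CPM to 27.1, 24.9 and 11.0 CPM (log2 fold change 2.27 ± 0.47, edgeR adjusted p = 0.233). For both genes the days did not overlap in banded hearts, and ABS P7 replicate 3 was the lowest P7 library. ENSRNOG00000013330 went from 10.5, 9.46 and 8.11 CPM to 1.59, 1.43 and 1.63 CPM (log2 fold change -2.58 ± 0.30, edgeR adjusted p = 0.14). The banded P3 libraries agreed for this gene, and no banded library was near the 56.3 CPM of sham P3 replicate 1. ENSRNOG00000019120 went from 79.0, 20.7 and 17.2 CPM to 11.0, 5.86 and 4.60 CPM (log2 fold change -2.44 ± 0.68, edgeR adjusted p = 0.234), again with 1 high P3 library.

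Of the 15 largest rises and the 15 largest falls in sham hearts, 14 each were tested in banded hearts. All 14 rises and 13 of the 14 falls had the same sign there, and for 11 rises and 11 falls the banded libraries of the days did not overlap, against 13.4% higher and 16.7% lower of all genes. The remaining fall had a log2 fold change of 1.09 in banded hearts.

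A difference of the change between sham and banded hearts was tested as the interaction of day and surgery over the 12 libraries. With edgeR, 0 of 15236 genes (0%) passed after adjustment. At an unadjusted p under 0.05 there were 176 genes (1.16%), and DESeq2 called 5 of 22591 genes (0.0221%). For the 4 named genes, the adjusted p of the interaction was 1.00 each. The difference of log2 fold change, sham minus ABS, was -0.04 (standard error 0.61) for ENSRNOG00000007102, 0.51 (0.73) for ENSRNOG00000048169, -1.34 (1.03) for ENSRNOG00000013330 and -0.31 (1.12) for ENSRNOG00000019120. These errors are as large as a 1.5-fold change or larger, so a difference of that size was not detectable at this spread. Among the 15 largest rises and 15 largest falls, 0 rises and 1 fall had an unadjusted edgeR interaction p under 0.05. It was the fall with the opposite sign in banded hearts, with a difference of -3.50 (standard error 0.80, unadjusted p = 0.00109). It did not pass after adjustment.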

How the data were processed

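RNA of left ventricles was sequenced with poly-A selection. By the methods of the study, the authors filtered out adapter, poly-N and low-quality reads, counted the rest per gene with featureCounts and deposited raw counts, 1 table of 34733 rows per library. The submitters' processing notes list HISAT2 2.0.5 and the builds GRCm38 and mm10, which are of the mouse, while the rows carry rat identifiers. The build used, the annotation and the strand setting are not given in the sources used here, so near-identical or overlapping genes may share reads.

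The counts were tested with edgeR 4.0.16 in R 4.3.3 (TMM factors, filterByExpr, robust quasi-likelihood F test). DESeq2 1.42.0 and limma 3.58.1 (voom with sample quality weights) were alternatives. CPM used TMM-scaled totals, and log2 CPM a prior count of 2. Standard errors are the log2 fold change divided by the root of F. The code was tested on simulated data. Named genes were the 15 Ensembl genes in each direction with the largest log2 fold change, among those averaging 10 CPM or more with no overlap between days, and any gene past the adjusted threshold. As no symbols were paired, 2 identifiers per direction are printed and the lists of known genes were not used. Library totals were 14291538 to 17286278 counts, and thinning every library to the smallest total left the number of genes called as it was. The members and lists were chosen with earlier results of these data known. Alternatives were scaling, filter, tool, a replicate block, thinning, and each library left out.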

Additional observations from a re-analysis of the deposited data

How the results depend on the processing

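For P7 against P3 in sham hearts, edgeR called 1 gene. The number was 412 of 21410 with DESeq2 and 6719 of 14619 with limma's sample quality weights. It was 8 with detected genes as a covariate, and 2 each without the filter, with upper-quartile factors and with library totals alone. With limma, P3 replicates 1 and 2 had weights of 0.148 and 0.162, while the other 4 libraries had 1.96 to 3.09. It ranged from 0 to 4820 when 1 library was left out, with 4820 without P3 replicate 1. RLE factors, 1 CPM in 3 libraries, no robust estimates and thinning gave 1 each. All 12 libraries gave 1 other gene, with ENSRNOG00000007102 at an adjusted p of 0.0827. The cause of these changes was not tested.

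Separated genes of at least 10 CPM numbered 3064, and 3022 to 3058 with other scalings. With a mean of at least 50 CPM the number was 1328, where fewer genes were counted, and it ranged from 3427 to 6753 with 1 library left out. In the banded hearts, 2 of 14504 genes were called, 490 of 21249 with DESeq2 and 6733 of 14504 with limma. With 1 library left out, 0 to 7468 genes were called, the 7468 without ABS P3 replicate 3. The interaction gave 0 genes, 5 with DESeq2, 1 with limma and 0 in each of the 12 fits without 1 library.

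The labels do not say that a replicate number marks a shared litter or day. Deviations of same-numbered sham libraries correlated at -0.01, -0.02 and -0.12, and no pairing was assumed. The replicate block gave 0 called genes in sham hearts, in banded hearts and in the interaction, and 1832 genes in sham hearts had an unadjusted p under 0.05.

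Of 52 refits of the 4 named genes, 15 passed the adjusted threshold. Their direction was set by the choice of genes that do not overlap.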

Other observations

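In sham hearts, 227 rows had at least 1 count in each P7 library and 0 in each P3 library, and 17 rows had the reverse. A count in all P7 libraries and in P3 replicates 1 and 3, with 0 in P3 replicate 2, was found for 1351 rows.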
